A study of Setaria viridis with 22 samples.

Results

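Inflorescences of the *Setaria viridis* mutant *sparse panicle1* (*spp1*) at 14 days after sowing (DAS) were compared with those of the wild-type accession A10.1 at 12 DAS, to ask which genes of the older mutant lagged behind, matched or exceeded the younger wild type. The groups were chosen by genotype and age, and held the 4 *spp1* libraries of 14 DAS and the 3 A10.1 libraries of 12 DAS, replicates 1, 2 and 4, together 7 of the 22 libraries of the study. The *spp1* mutant carries a lesion in an auxin importer gene of the AUX1 type and is in the A10.1 background, which both groups share. Whole early inflorescences were pooled for each biological replicate, and all plants were grown in one chamber facility with 12 hours of light. The groups differ in genotype and in age at the same time, so the effects of the mutation and of 2 more days of growth cannot be told apart in this comparison. A whole inflorescence mixes meristems, branches and axis, and a lower level of a transcript in it cannot be told apart from fewer cells that carry the transcript. Of the 35214 genes in the expression table, 17620 had a mean of at least 1 FPKM over the 7 libraries and were tested. FPKM, the number of fragments of a transcript corrected for its length and for the mapped fragments of the library, was the unit of all levels, and differences are on the log2(FPKM + 1) scale, which understates the change of genes with low FPKM.

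AUX1-type proteins carry auxin into cells, and together with efflux carriers they set the auxin maxima at which axillary meristems start. In grass inflorescences these meristems form branches, which branch again and end in spikelets, or in *Setaria* also in sterile bristles. Genes of the *RAMOSA* pathway and the *BARREN STALK* genes of maize, with LAX PANICLE of rice, are known for placing branch meristems and their boundaries. TAWAWA1 and TFL1-type proteins are known in rice for keeping inflorescence meristems active, whereas MADS-box proteins of the SEPALLATA group act when spikelets and florets are made.

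The A10.1 libraries of 12 DAS had 13.4 to 19.5 M mapped first reads and the *spp1* libraries of 14 DAS had 10.4 to 16.4 M. Replicate 4 of *spp1* stood apart. It had the fewest mapped reads of the 22 libraries and the lowest mapped share, 86.69%, and its correlation with the other 3 *spp1* libraries across the 17620 genes was 0.959 to 0.977, against 0.979 to 0.988 among those 3. Replicate 4 lay far from its 3 fellow libraries in 568 genes (3.22% of those tested), whereas each of the others did so in 70 to 118. The summed level of 44 genes annotated as ribosomal proteins was 34810 FPKM in replicate 4 and 20610 to 24630 FPKM in the other *spp1* libraries. Results that rest on this library are therefore also given without it.

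Few genes separated the older mutant from the younger wild type. At an adjusted p of 0.05, 78 genes were higher in *spp1* at 14 DAS and 34 were lower, which was 0.443% and 0.193% of the genes tested, together 112 genes (0.636%), and the groups did not overlap in any of them. Among these, the largest log2 difference upward was 3.46, in a gene at no more than 0.18 FPKM in A10.1 at 12 DAS. The largest downward was -3.67, in a gene listed at 0 in every mutant library, and the next was -2.84. In all, 41 of the higher and 18 of the lower genes were past a log2 difference of 1. In 16174 genes (91.8%) the 95% confidence interval lay within a log2 difference of 1 either way, so that these genes matched within that limit. Some of them were called all the same, such as Sevir.3G037800 (0.43 to 0.93). With 0.1 in place of 1 added to FPKM, 14855 genes met this limit. Without a correction 1563 genes (8.87%) had p below 0.05, and in 1720 genes (9.76%) the groups did not overlap. The median log2 difference of all genes tested was -0.056. The number of calls depended on the libraries. Without replicate 4 of *spp1*, 153 genes were higher (0.868%) and 72 lower (0.408%) among 17630 tested, and they included 77 of the 78 and 33 of the 34. With any other library left out the calls fell to 48, 36 and 30 without *spp1* replicates 1, 2 and 3, and to 44, 10 and 13 without A10.1 replicates 1, 2 and 4. Only 7 of the 112 genes were past the threshold in all 7 of these fits, but all 112 kept the sign of their difference in every fit made. An exact permutation test of a single gene cannot go below p = 0.0571 with 4 libraries against 3, so it was not used to call genes.

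A scale of development was taken from A10.1 itself. Between 10 and 14 DAS, in 8 libraries that the comparison does not use, 521 genes rose (2.9% of 17949) and 934 fell (5.2%) in A10.1 by a log2 change of more than 1 at an adjusted p of 0.05. The mean of the rising genes minus the mean of the falling genes was scaled to 0 at the mean of A10.1 at 10 DAS and 1 at that of A10.1 at 14 DAS, and is called the stage score. A10.1 replicates 1, 2 and 4 at 12 DAS scored 0.653, 0.543 and 0.608. Replicates 1 to 4 of *spp1* at 14 DAS scored 0.682, 0.766, 0.736 and 0.761. Each lay above each A10.1 library of 12 DAS and below the A10.1 libraries of 14 DAS, which had 0.954 to 1.047. The A10.1 libraries of 14 DAS helped to choose the genes and set the value of 1, so the place below them is partly built in. The means were 0.736 ± 0.0386 (SD, n = 4) in *spp1* at 14 DAS and 0.602 ± 0.0552 (SD, n = 3) in A10.1 at 12 DAS, while *spp1* at 12 DAS had 0.316 to 0.48. The mutant mean was further along on the falling genes than on the rising ones, with scores of 0.798 and 0.677, against 0.617 and 0.587 in A10.1 at 12 DAS. Replicate 4 had the widest gap, 0.884 and 0.644. Replicates 1 to 3 of *spp1* had 0.71 and 0.655, 0.806 and 0.729, and 0.793 and 0.682. A10.1 replicates 1, 2 and 4 at 12 DAS had 0.661 and 0.646, 0.54 and 0.547, and 0.651 and 0.567. The separation rested on the limit on the log2 change. With all genes past the adjusted p in A10.1, whatever their change, *spp1* replicate 4 scored 0.535 and fell below the A10.1 libraries of 12 DAS, which had 0.577 to 0.601, and the other *spp1* libraries scored 0.632 to 0.78.

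**Figure D1:**
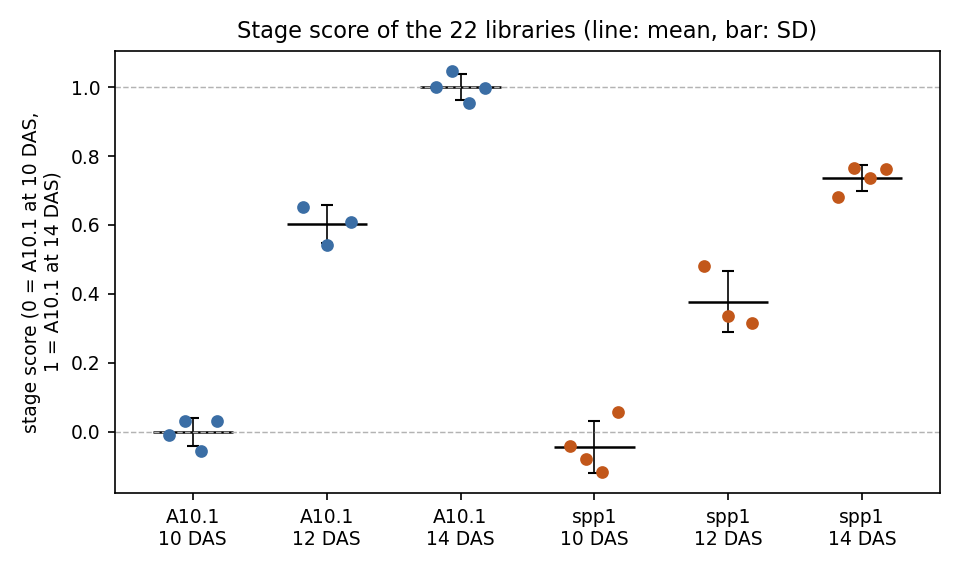
Stage score (vertical axis, no unit) of each of the 22 libraries by genotype and age, with A10.1 in blue and *spp1* in orange. Points are libraries, lines are group means and bars are SD. The A10.1 groups at 10 and 14 DAS set the scale, and *spp1* at 14 DAS (0.682 to 0.766) lies between A10.1 at 12 DAS (0.543 to 0.653) and A10.1 at 14 DAS (0.954 to 1.047).

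Genes of this scale were called more often than other genes, and mostly on the side of older tissue. Among the 501 rising genes that were tested, 31 were higher in *spp1* at 14 DAS (6.19%, against 0.443% of all genes) and 4 were lower (0.798%, against 0.193%). Among the 802 falling genes tested, 17 were lower (2.12%) and 0 were higher. The 0 comes from the limma test, and the mutant libraries were entirely above those of A10.1 in 12 of the 802. The other 60 called genes, 47 higher and 13 lower, were on neither side of the scale. Without *spp1* replicate 4 the counts were 50 rising genes higher, 14 rising genes lower and 26 falling genes lower. With any other library left out they were 3 to 19, 0 to 3 and 2 to 8, the 0 in each fit without an A10.1 library of 12 DAS. In 301 rising genes (60.1%, against 37.5% of all genes) the mutant mean was the higher one, and in 629 falling genes (78.4%, against 62.5%) it was the lower one. The median log2 difference was 0.118 in rising genes and -0.279 in falling genes, beside -0.056 in all genes. The mutant libraries all exceeded the highest A10.1 library in 112 rising genes (22.4%, against 4.63% of all genes) and all fell short of the lowest one in 43 (8.58%, against 5.13%). Of the falling genes, 160 (20%) had the mutant libraries entirely below those of A10.1.

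**Figure D2:**
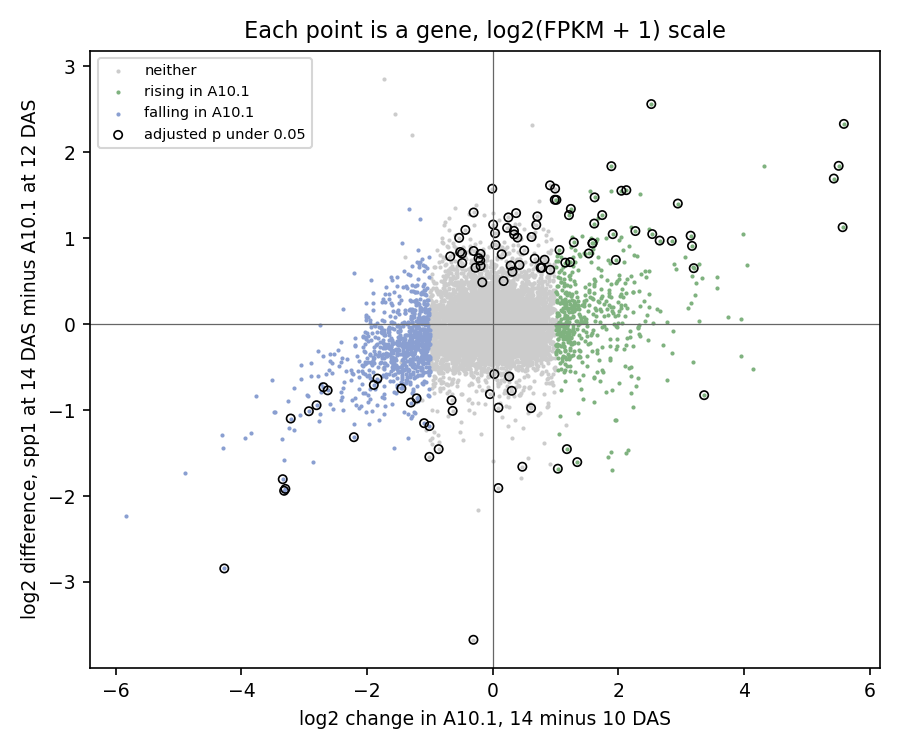
Log2 difference between *spp1* at 14 DAS and A10.1 at 12 DAS (vertical axis) against the log2 change in A10.1 from 10 to 14 DAS (horizontal axis) for 17429 genes, both on the log2(FPKM + 1) scale. Green points rise and blue points fall in A10.1, grey points do neither, and black circles are the 106 called genes with a value on both axes. Called falling genes lie below 0, and 31 of the 35 called rising genes lie above 0.

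The mean of *spp1* at 14 DAS was then placed among the A10.1 means of the 3 ages. The A10.1 mean of 12 DAS lay between those of 10 and 14 DAS in 463 of the rising genes. In 171 of them (36.9%) the mutant had not reached the level of A10.1 at 12 DAS, and in 5 more it had not passed that of 10 DAS. In 235 rising genes (50.8%) it lay between the levels of 12 and 14 DAS, and in 52 (11.2%) it was past that of 14 DAS. Falling genes were further along, while 62.5% of all genes tested also had lower means in the mutant than in A10.1 at 12 DAS. Of 767, 545 (71.1%) lay between the levels of 12 and 14 DAS, 69 (9%) were past 14 DAS, 147 (19.2%) lay between the levels of 10 and 12 DAS, and in 6 more the mutant had not passed that of 10 DAS. These places are of means and carry no test.

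**Figure D3:**
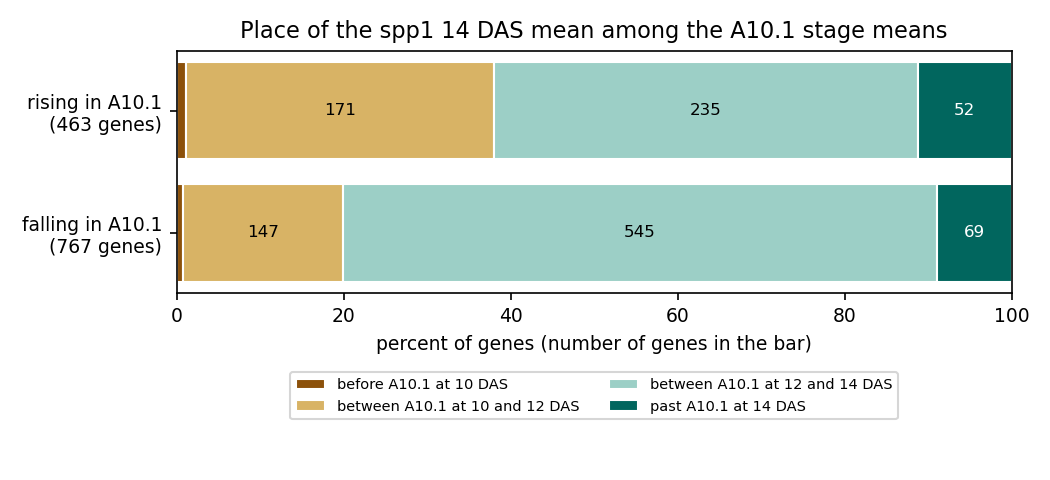
Percent of rising (463) and falling (767) genes, horizontal axis, by where the mean of *spp1* at 14 DAS lay among the A10.1 means of 10, 12 and 14 DAS. Numbers in the bars are genes. The lagging share, between 10 and 12 DAS, is 171 rising and 147 falling genes.

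Most branch initiation genes had lower means in the mutant than in A10.1 at 12 DAS, although none passed the correction with all 7 libraries. Values below are FPKM, with A10.1 at 12 DAS in the order of replicates 1, 2 and 4 and *spp1* at 14 DAS in the order of replicates 1 to 4. *SvBA1* (Sevir.5G374100), the LAX PANICLE-like bHLH gene that in maize and rice is needed for axillary meristems, had 54.46, 39.21 and 50.53 in A10.1 and 33.45, 35.58, 30.69 and 32.29 in *spp1*. Every mutant library lay below every A10.1 library, with a log2 difference of -0.52 (95% interval -0.8 to -0.23) that did not pass the correction (adjusted p = 0.156). The mutant level was also set beside the other ages of A10.1. It was far above that of 10 DAS, 2.19 to 6.39 FPKM (log2 difference 2.95, adjusted p = 3.93e-05), in a comparison that called 5.46% of its genes higher and 7.45% lower in the mutant. It was below that of 14 DAS, 63.64 to 97.98 FPKM (log2 difference -1.18, adjusted p = 0.0035), where 0.68% of genes were called higher and 1.25% lower.

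*SvRA2* (Sevir.5G116100) encodes a LOB domain protein that in maize limits the branching of spikelet pair meristems. It had 22.05, 19.04 and 18.28 FPKM in A10.1 and 9.85, 11.61, 10.42 and 14.81 FPKM in *spp1*. The groups did not overlap, and the log2 difference of -0.73 (-1.06 to -0.39) had an adjusted p of 0.0899, and of 0.0169 without *spp1* replicate 4, the highest of the mutant libraries.

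*SvBAF1* (Sevir.4G025200), the AT-hook gene known in maize as *BARREN STALK FASTIGIATE1* and required for ear formation, also had lower levels without overlap. Its values were 101.98, 65.8 and 69.87 FPKM in A10.1 and 40.79, 50.8, 50.02 and 55.53 FPKM in *spp1*, a log2 difference of -0.65 (-1.04 to -0.27, adjusted p = 0.181). *SvTSH1* (Sevir.3G136200), a GATA factor that in maize suppresses bract growth, had 45.65, 29.4 and 34.17 FPKM in A10.1 and 16.37, 14.67, 20.32 and 33.99 FPKM in *spp1*. Replicate 4 alone overlapped with A10.1, and the log2 difference of -0.79 (adjusted p = 0.372) became -1.03 without it (adjusted p = 0.0383).

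Other genes of the branching programme matched. *SvLG1* (Sevir.3G023500), the liguleless1-type SBP-box gene, had 44.34, 42.9 and 44.57 FPKM in A10.1 at 12 DAS and 39.63 to 54.11 FPKM in *spp1* at 14 DAS, a log2 difference of 0.06 (-0.2 to 0.33). *SvBAD1* (Sevir.2G210100), a TCP gene of branch angle in maize, had 5.89 to 9.68 FPKM and 4.5 to 8.65 FPKM (log2 difference -0.24, -0.78 to 0.29). Of the 5 genes of this list, 4 had lower means, where 62.5% of all genes did, 0 were called, and 2 lay entirely below A10.1 (*SvBA1* and *SvBAF1*), where 5.13% of all genes did. The median was -0.52, beside -0.056 in all genes. The list and the other branching genes, *SvBA1* among them, were reported by the study as changed in the mutant from these same libraries. Their differences here are therefore not independent of that choice.

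**Figure D4:**
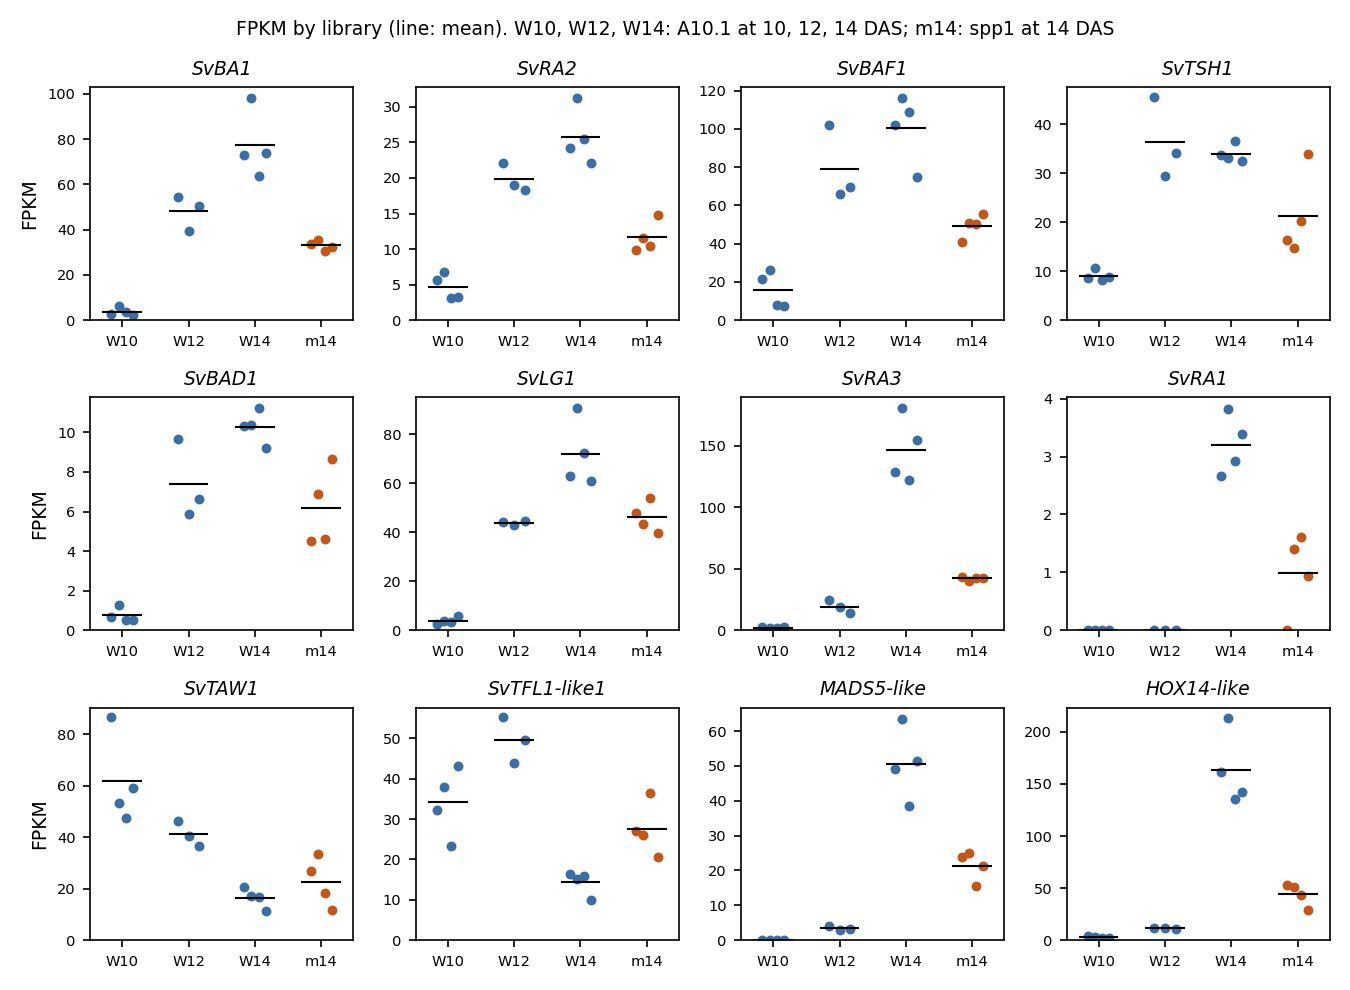
FPKM (vertical axes, each from 0) of 12 genes by library, in A10.1 at 10, 12 and 14 DAS (W10, W12, W14, blue) and *spp1* at 14 DAS (m14, orange). Points are libraries and lines are means. *SvBA1*, *SvRA2* and *SvBAF1* of the mutant lie below A10.1 at 12 DAS, *SvLG1* overlaps with it, and *SvRA3*, MADS5-like (Sevir.4G060800) and HOX14-like (Sevir.2G379700) lie above it and below A10.1 at 14 DAS.

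*SvRA3* (Sevir.2G407500), the trehalose phosphate phosphatase of the *RAMOSA* pathway, differed from *SvRA2* in direction. It had 24.42, 18.73 and 14.23 FPKM in A10.1 at 12 DAS and 43.48, 40.02, 42.8 and 42.12 FPKM in *spp1* at 14 DAS, and was called higher (log2 difference 1.13, 0.77 to 1.49, adjusted p = 0.0241). The 4 mutant libraries were within 4 FPKM of each other and all below A10.1 at 14 DAS, which had 121.96 to 180.33 FPKM (log2 difference -1.76, adjusted p = 0.000491). The call of *SvRA3* held in 2 of the 7 fits with a library left out, where its adjusted p ran from 0.0243 to 0.124. *SvRA1* (Sevir.2G209800), the zinc finger gene of the pathway, was below the limit for testing. The 3 A10.1 libraries of 12 DAS listed it at 0, and it had 0, 1.4, 1.61 and 0.94 FPKM in *spp1*, and 2.67 to 3.83 FPKM in A10.1 at 14 DAS.

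MADS-box, homeobox and SBP-box genes were among those called higher than in A10.1 at 12 DAS. Sevir.4G060800 is annotated as MADS-box transcription factor 5-like, of the SEPALLATA group, and as maize *zmm8*. It had 4.01, 2.92 and 3.29 FPKM in A10.1 and 23.8, 24.93, 15.45 and 21.35 FPKM in *spp1*, and was called higher (log2 difference 2.33, 1.93 to 2.73, adjusted p = 0.00395), as it was in all 7 fits with a library left out. Against A10.1 at 14 DAS, 38.52 to 63.6 FPKM, it was lower (log2 difference -1.21, adjusted p = 0.0133).

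The *zmm24* and *zmm31* gene Sevir.9G087100, MADS34-like, known in rice for panicle branching, had 57.61 to 72.5 FPKM in A10.1 and 93.39 to 106.39 FPKM in *spp1* (log2 difference 0.65, adjusted p = 0.037). Sevir.9G347400, MADS56-like, had 4.96 to 6.2 FPKM and 10.7 to 13.94 FPKM (log2 difference 1.03, adjusted p = 0.0143). These 3 were the called members of 14 tested genes annotated as MADS-box factors (0.443% of all genes were called higher). Of the 14, 8 had higher and 6 lower means, where 37.5% of all genes had higher ones, and the median was 0.19. Without *spp1* replicate 4, 3 were higher and 1 lower. The annotation covers only the 2952 genes that the authors called between the genotypes, so lists drawn from it are not independent of these libraries.

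Of 27 tested genes annotated with a homeobox or homeodomain and not as MYB factors, 2 were called, both higher (against 0.443% of all genes), and 13 had higher means. HOX14-like Sevir.2G379700, a homeobox-leucine zipper gene, had 11.95, 11.22 and 10.58 FPKM in A10.1 and 52.63, 51.47, 43.02 and 29.02 FPKM in *spp1* (log2 difference 1.84, 1.4 to 2.29, adjusted p = 0.00764). Its level in A10.1 at 14 DAS was 135.25 to 212.92 FPKM, above all mutant libraries (log2 difference -1.88, adjusted p = 0.0035). HOX21-like Sevir.9G528900 had 6.29 to 11.81 FPKM in A10.1 and 23.35 to 28.47 FPKM in *spp1* (log2 difference 1.45, adjusted p = 0.0152).

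Of 7 SBP-box genes tested, 1 was called, against 0.636% of all genes. SPL5-like Sevir.1G065500 had 4.25, 4.63 and 4.33 FPKM in A10.1 and 12.04, 17.33, 15.35 and 18.23 FPKM in *spp1*. Its log2 difference of 1.62 (1.28 to 1.95, adjusted p = 0.00726) was past the threshold in all 7 fits with a library left out. Unlike the MADS5-like and HOX14-like genes, it also exceeded A10.1 at 14 DAS, 5.38 to 8.74 FPKM (log2 difference 0.96, adjusted p = 0.023).

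Further rising genes that were called higher carry no annotation in the deposited tables. Sevir.1G030000 had 0.27 to 1.55 FPKM in A10.1 and 9.75 to 12.41 FPKM in *spp1* (log2 difference 2.56, adjusted p = 0.00726), beside 7.9 to 9.04 FPKM in A10.1 at 14 DAS. Sevir.7G303200 had 0.53 to 1.02 FPKM and 3.96 to 7.8 FPKM (log2 difference 1.84, adjusted p = 0.0151). Sevir.2G336300 had 27.07 to 46.97 FPKM and 97.95 to 118.88 FPKM (log2 difference 1.69, adjusted p = 0.00764), and A10.1 at 14 DAS had 102.01 to 114.04 FPKM. The last of these thus lay within a log2 difference of 0.08 of the older wild type.

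Genes of inflorescence meristem identity, which are lower at 14 than at 10 DAS in A10.1, had lower means in the mutant, and none passed the correction. *SvTAW1* (Sevir.9G221800), the ALOG gene named after rice TAWAWA1, had 46.41, 40.56 and 36.55 FPKM in A10.1 at 12 DAS and 26.81, 33.58, 18.23 and 11.55 FPKM in *spp1* at 14 DAS. Every mutant library was below every A10.1 library, but the log2 difference of -0.94 (-1.63 to -0.24) did not pass the correction (adjusted p = 0.343). *SvTFL1-like1* (Sevir.1G183200), of the TFL1 family that keeps meristems indeterminate, had 55.35, 43.93 and 49.56 FPKM in A10.1 and 27.09, 26.03, 36.54 and 20.49 FPKM in *spp1*, a log2 difference of -0.85 (-1.26 to -0.44, adjusted p = 0.102). Its A10.1 mean was highest at 12 DAS, 49.61 FPKM, with 34.24 FPKM at 10 DAS and 14.38 FPKM at 14 DAS, so this difference is from a high point of A10.1.

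The 3 genes named *SvTAW1-like* had log2 differences of -0.88 (Sevir.7G176000), -0.8 (Sevir.4G277900) and -0.52 (Sevir.1G244200), and *SvTFL1* (Sevir.8G033800), at no more than 2.72 FPKM in these libraries, had -0.31. All 6 means of the list were lower, as were those of 78.4% of falling genes and 62.5% of all genes. The mutant lay entirely below A10.1 in 4 of the 6, as in 20% of falling genes and 5.13% of all genes, 0 were called, and the median was -0.82, beside -0.279 in falling genes. Without *spp1* replicate 4, which had the lowest level of the 4 mutant libraries in *SvTAW1* and in *SvTFL1-like1*, the median was -0.6 and 0 were called. By limma no gene of the list was called between *spp1* and A10.1 at 14 DAS. The log2 differences there were 0.36 to 0.89 above A10.1, with adjusted p of 0.0523 to 0.445. The study, which used Cuffdiff, reported homologs of *TAW1* and *TFL1* as upregulated in the mutant against A10.1 of the same age.

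The genes with the largest called falls belonged to metabolism or had no annotation. Inositol oxygenase-like Sevir.4G252300, for the enzyme that opens myo-inositol to glucuronate, had 13.22, 43.23 and 27.09 FPKM in A10.1 at 12 DAS and 3.39, 1.88, 4.69 and 1.41 FPKM in *spp1* at 14 DAS (log2 difference -2.84, -3.77 to -1.92, adjusted p = 0.0255). A10.1 spread widely here, but its lowest library was above the highest of the mutant. Beta-amylase 3-like Sevir.9G323200, an enzyme of starch breakdown in the chloroplast, had 41.97, 49.04 and 49.51 FPKM in A10.1 and 14.17, 10.91, 18.05 and 9.13 FPKM in *spp1* (log2 difference -1.8, -2.27 to -1.34, adjusted p = 0.0107). Both genes were near the level of A10.1 at 14 DAS, with log2 differences of -0.23 and -0.34 from it.

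Sevir.6G240200 had 7.72 to 14.14 FPKM in A10.1 at 12 DAS and 1.7 to 2.62 FPKM in *spp1* (log2 difference -1.94), and Sevir.7G226700 had 27.28 to 43.7 FPKM and 6.79 to 10.04 FPKM (log2 difference -1.92), both with an adjusted p of 0.00726. Sevir.5G329500 had 5.47 to 7.76 FPKM and 1.02 to 2.72 FPKM (log2 difference -1.31, adjusted p = 0.0423). None of these 3 has an annotation in the deposited tables.

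Smaller falls were called in abundant transcripts. S-adenosylmethionine synthase 1-like Sevir.5G154000, which makes the methyl donor of the cell, had 564.4, 662.76 and 500.78 FPKM in A10.1 and 315.03 to 378.81 FPKM in *spp1* (log2 difference -0.71, adjusted p = 0.0477). DIR1-like lipid transfer protein gene Sevir.5G431200 had 573.91 to 661.99 FPKM and 352.84 to 440.02 FPKM (log2 difference -0.63, adjusted p = 0.0425), and was the called member of 15 lipid transfer protein genes tested (0.193% of all genes were called lower). Of these 15, 13 are falling genes and 13 had lower means, as did 78.4% of falling genes. Peroxidase 43-like Sevir.7G288900 had 8.27 to 9.84 FPKM and 4.66 to 6.11 FPKM (log2 difference -0.73, adjusted p = 0.047). Sevir.7G095100 and Sevir.8G026000, with no annotation, had log2 differences of -0.77 (adjusted p = 0.0441) and -0.75 (adjusted p = 0.0358). The first 3 of these 5 calls, and that of Sevir.7G095100, concern genes that in A10.1 fell further by 14 DAS than they had in the mutant, with mutant levels above A10.1 at 14 DAS by a log2 difference of 0.43 to 0.7 that was not called.

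Against this direction, 4 genes that rise in A10.1 were called lower in the mutant with all 7 libraries, and none of them with 1 of the A10.1 libraries left out. Sevir.2G038600, annotated as similar to a rice apomixis-related protein gene, had 16.28, 16.89 and 17.93 FPKM in A10.1 at 12 DAS and 8.88, 8.57, 9.45 and 9.81 FPKM in *spp1* at 14 DAS (log2 difference -0.83, -1.05 to -0.6, adjusted p = 0.0131). Its level rose from 2 to 3.04 FPKM in A10.1 at 10 DAS to 31.75 to 43.08 FPKM at 14 DAS, so the mutant lay between the levels of 10 and 12 DAS. The trypsin-like gene Sevir.7G311000 had 10.79 to 13.32 FPKM in A10.1 and 1.62 to 4.4 FPKM in *spp1* (log2 difference -1.68, adjusted p = 0.0229), which was below even A10.1 at 10 DAS, 6.2 to 11.22 FPKM (log2 difference -1.22, adjusted p = 0.00744).

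The peroxidase family gene Sevir.2G418800 had 4.83, 5.84 and 5.04 FPKM in A10.1 and 0.44 to 1.95 FPKM in *spp1* (log2 difference -1.6, adjusted p = 0.0355). Sevir.1G376200, with no annotation, had 2.88 to 3 FPKM and 0 to 0.92 FPKM (log2 difference -1.45, adjusted p = 0.0301). In both, A10.1 had a higher mean at 12 DAS than at 14 DAS, where its libraries had 1.98 to 3.29 and 1.36 to 3.47 FPKM.

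These 4 were among the 43 rising genes in which the mutant libraries were entirely below those of A10.1. The others were of many kinds or had no annotation, and included argonaute, separase and serine carboxypeptidase genes. A few that are known for meristems and organ initiation in other plants are named below. They were singled out after their values were seen, and none was called with all 7 libraries. Members of the same transcription factor families went both ways. AP2/ERF genes had 5 higher and 10 lower means, MYB genes 20 and 24, and homeobox genes not annotated as MYB factors 13 and 14. Sevir.1G221000, ESR2-like, an AP2 factor gene expressed where organs start in Arabidopsis, had 19.51, 11.33 and 11.55 FPKM in A10.1 and 3.08, 5.15, 0.5 and 10.33 FPKM in *spp1* (log2 difference -1.69, adjusted p = 0.375). RAX2-like Sevir.5G277100, a MYB gene of a family that acts in axillary meristem formation in Arabidopsis, had 18, 16.66 and 14.2 FPKM in A10.1 and 3.88, 6.82, 4.75 and 10.68 FPKM in *spp1*. Its log2 difference of -1.27 had an adjusted p of 0.104, and of 0.0121 without *spp1* replicate 4. The homeobox gene Sevir.7G215400, maize *ocl2*, had 4.17 to 5.3 FPKM in A10.1 and 1.63 to 3.68 FPKM in *spp1* (adjusted p = 0.215, and 0.0333 without that replicate). WOX7-like Sevir.5G266300 had a log2 difference of -0.63 (adjusted p = 0.55), and 2 genes annotated as homologs of maize *terminal ear1*, an RNA-binding regulator of leaf initiation, had -0.54 (Sevir.2G295600, adjusted p = 0.113) and -0.42 (Sevir.2G295400, adjusted p = 0.357).

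In the auxin families 1 gene was called, where 0.636% of all genes were. Of 84 genes in the families for auxin synthesis, transport and response, 67 were tested, 55 of these (82.1%, against 91.8% of all genes) had a 95% interval within a log2 difference of 1, and the median was 0.04. The call was that of *SvSPI1* (Sevir.5G251100), the flavin monooxygenase of auxin synthesis, which was higher. It had 30.49, 23.96 and 26.61 FPKM in A10.1 at 12 DAS and 40.11, 47.4, 45.54 and 51.06 FPKM in *spp1* at 14 DAS (log2 difference 0.75, 0.48 to 1.02, adjusted p = 0.0359), and A10.1 at 14 DAS had 39.27 to 50.24 FPKM. *SvVT2* (Sevir.5G116300), for the tryptophan aminotransferase that acts before it in the same route, had 39.12, 27.9 and 31.86 FPKM in A10.1 and 17.62, 16.96, 20.05 and 22.22 FPKM in *spp1*. The log2 difference of -0.74 (-1.07 to -0.42) had an adjusted p of 0.074, and of 0.0342 without *spp1* replicate 4. In A10.1 *SvVT2* was highest at 12 DAS, and the mutant was within a log2 difference of 0.15 of A10.1 at 14 DAS. Sevir.3G100900, outside these families as the study listed them, is annotated like *SvVT2* as tryptophan aminotransferase-related protein 2-like and was called higher. It had 14.48 to 17.52 FPKM in A10.1 at 12 DAS and 24.12 to 29.75 FPKM in *spp1* at 14 DAS (log2 difference 0.79, adjusted p = 0.0267). Its mean in A10.1 at 14 DAS was 13.7 FPKM.

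Without *spp1* replicate 4, 4 of the 67 auxin genes were called higher (against 0.868% of all genes) and *SvVT2* lower (against 0.408%). Besides *SvSPI1* they were efflux carrier genes, for proteins that move auxin out of cells, and an AUX/IAA gene, named here after their values were seen. The efflux carrier gene Sevir.5G249500 had 22.03, 15.61 and 20.37 FPKM in A10.1 and 34.4, 32.99, 42.69 and 27.44 FPKM in *spp1*, with a log2 difference of 0.8 (adjusted p = 0.101) that was 0.9 without that replicate (adjusted p = 0.036). Sevir.4G158100, of the same family, was at no more than 3.13 FPKM, with log2 differences of 1.0 (adjusted p = 0.0849) and 1.1 (adjusted p = 0.0388). The AUX/IAA gene Sevir.9G095600 had 5.32 to 6.46 FPKM in A10.1 and 9.29 to 17.98 FPKM in *spp1*, with log2 differences of 1.01 (adjusted p = 0.0766) and 1.15 (adjusted p = 0.0179). In these 3 genes replicate 4 was the lowest of the mutant libraries and still above A10.1.

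*SPP1* itself (Sevir.5G392400) had 29.22, 24.63 and 27.05 FPKM in A10.1 and 16.52, 21.4, 17.17 and 28.25 FPKM in *spp1*, with replicate 4 among the A10.1 values (log2 difference -0.38, adjusted p = 0.609). The transcript thus does not separate the groups of this comparison, and the position of the lesion in it was not analysed. At equal age the genotypes did not overlap at 12 DAS, where *spp1* had 16.63 to 21.58 FPKM. Nor did they at 14 DAS, where A10.1 had 30.11 to 36.11 FPKM (log2 difference -0.65, adjusted p = 0.072 by limma). The study reported *SPP1* as significantly reduced in the mutant at both of these ages. The paralogue *SvAUX4* (Sevir.9G295700) had 96.08, 81.25 and 72.73 FPKM in A10.1 and 135.56, 137.34, 116.94 and 156.91 FPKM in *spp1*, with no overlap (log2 difference 0.71, 0.41 to 1.01, adjusted p = 0.0641). *SvAUX2* (Sevir.3G228500) and *SvAUX5* (Sevir.9G475300) overlapped, with log2 differences of 0.13 (-0.32 to 0.59) and -0.18 (-0.48 to 0.13). *SvAUX3* (Sevir.8G047900), at no more than 0.93 FPKM, was not tested.

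All 24 auxin response factor genes had intervals within a log2 difference of 1, with differences of -0.23 to 0.59, and the ARF14-like gene Sevir.3G183400 had 54.06 to 64.23 FPKM in A10.1 and 66.99 to 81.34 FPKM in *spp1* (log2 difference 0.37, adjusted p = 0.241). ARF19-like Sevir.4G252900 and ARF9-like Sevir.7G115700 had -0.23 and -0.17. The F-box receptor genes Sevir.7G085300 and Sevir.8G141100 had -0.18 and -0.06. Among 26 AUX/IAA repressor genes 13 had higher and 13 lower means. IAA20-like Sevir.4G058700 had the lowest difference, with 17.76, 6.59 and 10.42 FPKM in A10.1 and 2.16, 3.48, 2.81 and 6.62 FPKM in *spp1* (log2 difference -1.38, -2.2 to -0.57, adjusted p = 0.184), and *spp1* replicate 4 overlapped with A10.1 replicate 2. IAA24-like Sevir.2G061900 had 15.18 to 19.54 FPKM and 19.64 to 27.58 FPKM, with no overlap (log2 difference 0.44, adjusted p = 0.368). The other named repressor genes overlapped, with 0.32 (Sevir.3G396200), 0.38 (Sevir.9G054000), 0.04 (Sevir.3G396300) and -0.4 (Sevir.9G161200).

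**Figure D5:**
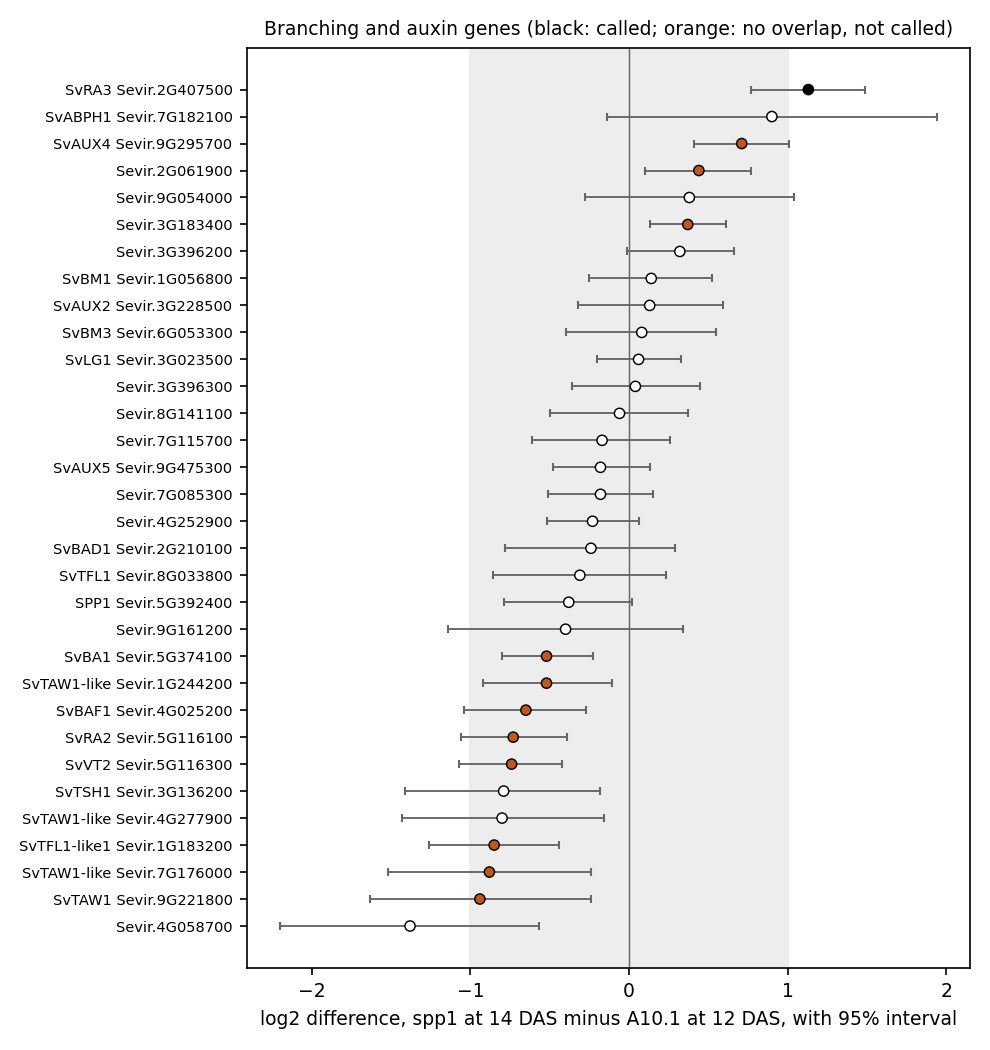
Log2 difference between *spp1* at 14 DAS and A10.1 at 12 DAS (horizontal axis, log2(FPKM + 1) scale) with its 95% interval for the branching and auxin genes that were named whatever their values and tested. Black points are called, orange points have no overlap between groups but are not called, and white points overlap. The grey band is a log2 difference of 1 either way. *SvRA3*, at 1.13, is the called gene, and IAA20-like Sevir.4G058700 has the lowest value, -1.38.

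The lignin genes *SvBM1* (Sevir.1G056800) and *SvBM3* (Sevir.6G053300), after the maize brown midrib loci, had log2 differences of 0.14 and 0.08 with overlapping groups. *SvABPH1* (Sevir.7G182100), a cytokinin response regulator, had 19.13, 9.83 and 17.27 FPKM in A10.1 and 18.27, 18.93, 25.54 and 73.91 FPKM in *spp1*. Its log2 difference of 0.9 (-0.14 to 1.94, adjusted p = 0.673) was 0.45 without replicate 4.

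Some of the called genes differed with genotype at every age. In the 15 libraries that the comparison does not use, the 7 of *spp1* were entirely above the 8 of A10.1 in 4 of the 78 higher genes (5.13%, against 0.176% of all genes tested), and below them in 3 of the 34 lower genes (8.82%, against 0.108%). The glutathione S-transferase-like gene Sevir.5G459100 had the highest log2 difference of the comparison, with 0, 0.18 and 0.13 FPKM in A10.1 at 12 DAS and 6.72, 8.45, 12.96 and 20.33 FPKM in *spp1* at 14 DAS (log2 difference 3.46, 2.75 to 4.18, adjusted p = 0.00726). All 8 A10.1 libraries of the other ages listed it at 0, whereas the mutant at 10 and 12 DAS had 7 to 26.82 FPKM.

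The 40S ribosomal protein S4 gene Sevir.3G037800 (*rps4*) had 1134.46, 1181.66 and 1105.01 FPKM in A10.1 and 1921.19, 1752.49, 1594.09 and 2062.46 FPKM in *spp1* (log2 difference 0.68, adjusted p = 0.037), with 1632.6 to 2120.06 FPKM in the younger mutants. It was the called member of 43 ribosomal protein genes tested, of which 40 had higher means, where 37.5% of all genes did, with a median of 0.13. Without *spp1* replicate 4 that median was 0 and the *rps4* difference 0.62 (adjusted p = 0.0226). Calmodulin-like Sevir.5G458100 and Sevir.1G186700, annotated as a putative methyltransferase, were the other higher genes of this kind. The lower ones were Sevir.7G311000, the trypsin-like rising gene, Sevir.5G161500 and Sevir.9G208200. Apart from Sevir.7G311000 these genes were on neither side of the scale.

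For some called genes A10.1 at 12 DAS was not intermediate. The A10.1 mean was lowest at 12 DAS in 26 of the 78 higher genes (33.3%, against 14.7% of all genes tested). Of these 26, 24 were genes on neither side of the scale. The A10.1 mean was highest at 12 DAS in 12 of the 34 lower genes (35.3%, against 15.9%). The A10.1 values of 12 DAS made the calls as well as these classes, so the counts are a description only. The ABC transporter gene Sevir.6G046800, ABCG14-like, of a family member that moves cytokinin in Arabidopsis, had 2.68, 2.86 and 2.79 FPKM in A10.1 at 12 DAS, with means of 7.69 at 10 DAS and 7.09 at 14 DAS, and 8.56 to 11.84 FPKM in *spp1* at 14 DAS (log2 difference 1.58, adjusted p = 0.00726). Sevir.4G169200 and Sevir.4G275700, both without annotation, had at most 0.7 FPKM in A10.1 at 12 DAS and 1.79 to 4.94 FPKM in *spp1*, with log2 differences of 1.73 and 1.76. Sevir.6G168200, also low in A10.1 but without such a low point, had at most 0.1 FPKM in A10.1 at 12 DAS and 1.26 to 4.57 FPKM in *spp1* (log2 difference 1.99, adjusted p = 0.0308).

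Sevir.5G451400 was listed at 0 in all 4 *spp1* libraries of 14 DAS and had 7.8, 12.08 and 17.02 FPKM in A10.1 at 12 DAS (adjusted p = 0.00145), but was also listed at 0 in 2 of the 4 A10.1 libraries of 14 DAS. Sevir.3G151900 was likewise listed at 0 in these mutant libraries, against 1.37 to 4.27 FPKM in the 3 A10.1 libraries (adjusted p = 0.0211). Sevir.2G340800, annotated with a senescence regulator domain, had 7.93, 7.99 and 10.14 FPKM in A10.1 and 1.26 to 2.81 FPKM in *spp1* (log2 difference -1.66, adjusted p = 0.0111). Sevir.3G105700 had 20.04 to 44.5 FPKM and 8.9 to 11.56 FPKM (log2 difference -1.54, adjusted p = 0.0308).

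Genes of photosynthesis fall with age in A10.1 and were used to look for leaf tissue. Of 26 such genes tested, 24 were falling genes, 23 had lower means in *spp1* at 14 DAS than in A10.1 at 12 DAS, 0 were called by limma, and the median was -0.26. Of all falling genes 78.4% had lower means, with a median of -0.279. Their summed level was 4056 to 5491 FPKM in A10.1 at 12 DAS, 2976 to 5132 FPKM in *spp1* at 14 DAS and 2375 to 3055 FPKM in A10.1 at 14 DAS, and none of the 26 was at 0 in any library. The groups overlapped in this sum, and without *spp1* replicate 4, which had the lowest, the median was -0.12. Whether leaf tissue took part in the differences was not tested.

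Calls in other lists are given as counts, where 0.443% of all genes were called higher and 0.193% lower. In lists of this size 1 call already exceeds these shares. Of 32 peroxidase and laccase genes 1 was higher and 2 lower. Of 15 trehalose phosphate genes 1 was higher (*SvRA3*) and 1 lower, trehalose-phosphate phosphatase 1-like Sevir.1G266500, with 18.59 to 23.37 FPKM in A10.1 and 7.62 to 10.26 FPKM in *spp1* (log2 difference -1.15, adjusted p = 0.0112). Of 31 bHLH genes 1 was lower, bHLH61-like Sevir.3G292000 (log2 difference -0.91, adjusted p = 0.036). Among 44 MYB, 15 AP2/ERF, 14 WRKY, 8 NAC and 6 TCP genes 0 were called, where without *spp1* replicate 4 1 MYB and 2 AP2/ERF genes were lower and 1 AP2/ERF and 1 NAC gene higher.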

How the data were processed

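Pooled inflorescence primordia of A10.1 and *spp1* gave 22 directional, paired-end libraries. The authors trimmed reads with Trimmomatic, checked them with FastQC, mapped them with TopHat2 and Bowtie2 on genome version 1 of *S. viridis*, and deposited FPKM values of primary transcripts from Cuffdiff. Tool versions are not given in the sources used here. Mapped reads, also as a percent, were deposited by the authors. The authors' tables of called genes were used for annotation only. FPKM carries no counts, so error comes from the spread between replicates, which are separate pools.

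Log2(FPKM + 1) was fitted with limma 3.58.1 in R 4.3.3 (lmFit and eBayes with trend, two-sided, group as the only term), where the mean FPKM of the fitted libraries reached 1, with Benjamini-Hochberg adjustment over all genes tested and a threshold of 0.05. Comparisons of *spp1* at 14 DAS with A10.1 at 10 and 14 DAS were fitted alone in the same way. They share the mutant libraries with the main comparison and are given side by side. Where Cuffdiff was used by the study, limma replaced it, since it takes FPKM. Tested on simulated data, the fit recovered 93% of 200 genes changed by 1.5 on the log2 scale among 17620, with 11 unchanged genes called. The simulation gave every library the same spread, changed no gene of low level and used only changes of 1.5. It therefore does not show what is recovered at smaller differences, or where 1 library stands apart, as *spp1* replicate 4 did.

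Named genes were the 34 influx carrier, auxin and branching genes that the study displayed, the 10 highest and 10 lowest differences among called genes without overlap, the 5 highest and lowest among called rising and falling genes, and called genes with a maize name or in the auxin list. Genes outside this rule were chosen after their values were seen. They are Sevir.9G347400, Sevir.9G528900, Sevir.6G046800, Sevir.1G266500, Sevir.3G292000, Sevir.7G196400, Sevir.2G346100, Sevir.3G100900, the uncalled rising genes lower in the mutant (ESR2-like to *terminal ear1*), the auxin genes called without *spp1* replicate 4, the genes set apart by genotype at every age and those of neighbouring identifiers. Members and lists were chosen with earlier results of these data known. Alternatives tried were median ratio scaling, a minimum of 5 FPKM, no filter, a pseudocount of 0.1, all 22 libraries in 1 fit, a replicate block, library weights, no limit on the log2 change of the scale, and each library left out. No sequence was used here, and 0 identifiers matched the reference gene table. Figures were drawn with matplotlib 3.10.9.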

Additional observations from a re-analysis of the deposited data

Results flagged for a closer look

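In 5 of the named genes 1 of the 4 *spp1* libraries of 14 DAS stood far from the other 3, by a gap of more than 0.829 of the range. Chance alone gives this in about 1 of 20 groups, and 65 genes were looked at. *SvABPH1* (Sevir.7G182100) had 73.91 FPKM in replicate 4 and 18.27 to 25.54 FPKM in the others. Sevir.8G141100, an auxin F-box receptor gene, had 7.25 FPKM in replicate 4 and 12.18 to 12.71 FPKM in the others. Sevir.2G336300 had 97.95 FPKM in replicate 4 and 115.68 to 118.88 FPKM in the others. Peroxidase 43-like Sevir.7G288900 had 6.11 FPKM in replicate 4 and 4.66 to 4.82 FPKM in the others. *SvAUX2* (Sevir.3G228500) had 7.96 FPKM in replicate 2 and 4.39 to 4.89 FPKM in the others. Replicate 4 was thus the library that stood apart in 4 of the 5.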

How the results depend on the processing

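The direction of the 112 calls held under all alternatives run, whereas their number did not, and the cause was not tested. Counts are given as genes called in all, higher and lower, then rising genes higher and lower, then falling genes higher and lower, and were 112, 78, 34, 31, 4, 0 and 17 in the report. All 22 libraries in 1 fit gave 294, 187, 107, 50, 12, 2 and 34. Library weights, which were 0.169 for *spp1* replicate 4 and 4.964 for A10.1 replicate 4, gave 877, 552, 325, 112, 41, 14 and 89, and turned the uncalled differences of Sevir.7G115700 to 0.04, Sevir.8G141100 to 0.16 and Sevir.9G161200 to 0.1. Without a filter on low FPKM 51 genes were higher, 2 rising genes lower and 8 falling genes lower. A pseudocount of 0.1 left 2 rising genes lower, and so did a minimum of 5 FPKM. Median ratio scaling moved the median of all genes from -0.056 to -0.009 and gave 1 falling gene called higher. Without a limit on the log2 change of the scale, 4 falling genes were higher and the mean stage score of *spp1* at 14 DAS was 0.656 in place of 0.736.

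With 1 library left out at a time the calls ran from 10 to 225, with 7 to 153 higher, 3 to 72 lower, 3 to 50 rising genes higher, 0 to 14 rising genes lower and 2 to 26 falling genes lower. The lowest of these counts came without A10.1 replicate 2 and the highest without *spp1* replicate 4. Genes with an interval within a log2 difference of 1 numbered 15428 to 16566. Uncalled log2 differences that changed sign were those of *SvBM1* (-0.04 to 0.32), *SvLG1* (-0.02 to 0.13), *SvAUX2* (-0.04 to 0.21), Sevir.3G396300 (-0.1 to 0.14), *SvBM3* (-0.07 to 0.21) and Sevir.8G141100 (-0.13 to 0.11).

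No clear pairing by the shared replicate numbers was seen, but so few libraries cannot decide the question. The labels do not say what the numbers mark. The correlations of the deviations of libraries with the same number were -0.308, 0.268 and 0.169 for numbers 1, 2 and 4, and no A10.1 library correlated best with its own number. With the number as a replicate block 36 genes were called, 25 higher and 11 lower, with 13 rising genes higher, 1 rising gene lower and 7 falling genes lower, and the difference of *SvLG1* was -0.02. FPKM carries no counts, so the precision rests on the spread of 4 libraries against 3.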

Other observations

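Genes called higher gathered in 2 runs of neighbouring identifiers, which were picked after the values were seen. Of the 20 tested genes with identifiers from Sevir.3G037800 to Sevir.3G040500, 6 were called higher (30%, against 0.443% of all genes tested) and 0 lower, and their median log2 difference was 0.6. In 6 of the 20, all 7 *spp1* libraries of 10 and 12 DAS also lay above all 8 A10.1 libraries of 10 and 14 DAS, which happened in 31 of the 17620 genes. The called genes were Sevir.3G037800 (*rps4*), Sevir.3G038200, Sevir.3G039600, Sevir.3G039900, Sevir.3G040200 and Sevir.3G040500. Sevir.3G038200 had 50.34 to 73.89 FPKM in A10.1 at 12 DAS and 152.44 to 201.77 FPKM in *spp1* at 14 DAS, above the 63.06 to 80.27 FPKM of A10.1 at 14 DAS. Sevir.3G040500, an F-box gene, had 44.12 to 47.5 FPKM in A10.1 at 12 DAS and 62.21 to 67.17 FPKM in *spp1* at 14 DAS. Of the 8 tested genes from Sevir.5G457800 to Sevir.5G459100, 3 were called higher (37.5%), the glutathione S-transferase-like Sevir.5G459100 among them, and 3 had all *spp1* libraries of 10 and 12 DAS above all A10.1 libraries of 10 and 14 DAS. Genome positions of these genes were not analysed here.

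Some called genes outside the lists were far from every age of A10.1. Glutamate dehydrogenase 2-like Sevir.7G196400 had 46.56 to 62.64 FPKM in A10.1 at 12 DAS and 24.97 to 30.61 FPKM in *spp1* at 14 DAS (log2 difference -0.97, adjusted p = 0.0161 by limma), with A10.1 means of 51.7 at 10 DAS and 54.7 at 14 DAS. The glucose-6-phosphate translocator gene Sevir.2G346100 had 46.13 to 65.25 FPKM and 102.48 to 142.85 FPKM (log2 difference 1.04, adjusted p = 0.0301). Of the 78 higher genes 62 (79.5%, against 14.2% of all genes tested) had a mutant mean above all 3 A10.1 means. Of the 34 lower genes 21 (61.8%, against 23.8%) had it below all 3. One of the 3 means is that against which the genes were called, so these counts are a description only.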
